A study of Mus musculus with 17 samples.

Results

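The 9 genes described here, which encode receptors that carry an immunoreceptor tyrosine-based inhibitory motif (ITIM) or belong to families that do, were followed through synovial macrophages: Sirpa, Pirb, Lilrb4a, Lair1, Cd300a, Cd300lf, Siglece, Cd33 and Pilra. They were chosen by symbol from the joint count table, and all 9 of 9 were among its 22859 genes. The study sorted macrophages of the synovium, the lining tissue of joints, from adult mice and sequenced their total RNA in bulk. All 17 libraries came from mice labelled Fcgr2b-KO, so the control mice too lacked FcγRIIb, the inhibitory Fc receptor for IgG. IC mice had received immune complexes (IC), ovalbumin bound by rabbit antibody, into the tail vein, and were analyzed 8 h later. The labels Lyve1, IAIE and CD11c were read as LYVE1+CX3CR1+ macrophages, as MHCII+CD11c- macrophages and as MHCII+CD11c+ macrophages, in this order. Each subset had 3 control and 3 IC libraries, except that MHCII+CD11c+ macrophages had 2 after IC. The label Healthy marked the controls. For the same subsets the study names several mice behind each plotted point, but it was not stated whether that covers the mice compared here, or whether libraries with the same number share mice, so p-values measure the spread between libraries, part of which may be technical.

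Inhibitory receptors of this kind are held in the membrane of myeloid cells with an outer part that binds a ligand and an inner tail that carries the ITIM. When the receptor is engaged, Src-family kinases phosphorylate the tyrosine of the motif, and the tail then recruits the phosphatases SHP-1, SHP-2 or SHIP-1, which dampen signals from activating receptors. Many of these receptors have a close activating relative that lacks the motif and signals through the adaptor FcRγ or DAP12. Activating Fc receptors, which bind immune complexes, signal through FcRγ, and FcγRIIb is their best known ITIM-bearing counterpart.

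The motif itself was read from the coding sequence of 1 principal transcript per gene (GENCODE M21, build GRCm38). The search took a residue of isoleucine, leucine, valine or serine, any residue, tyrosine, any 2 residues, then isoleucine, leucine or valine, on the side of the most hydrophobic 19-residue window that ends at the carboxyl terminus. Sirpa and Pirb had 3 such motifs, Lilrb4a, Lair1, Cd300a and Cd300lf had 2, and Siglece and Pilra had 1. Cd33 had 0, which sets it apart from the label of the list: it is the mouse gene of a sialic acid-binding receptor whose family is known for the motif, and it is described below as CD33 without the motif. In the last 100 residues of the coded protein the motif was present in 8 of the 9 receptors (88.9%) and in 3590 of 21562 protein-coding genes (16.6%), so a match alone is common. The 18 bases that encode the motif nearest to the membrane are shown in capitals for each of the 8 receptors, with up to 21 bases of coding sequence on either side, and the second motif is added for Pirb and Lilrb4a because these are the most alike between receptors.
Sirpa, motif 1: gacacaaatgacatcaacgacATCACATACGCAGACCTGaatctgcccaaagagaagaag
Pirb, motif 1: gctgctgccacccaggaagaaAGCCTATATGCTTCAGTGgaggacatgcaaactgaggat
Pirb, motif 2: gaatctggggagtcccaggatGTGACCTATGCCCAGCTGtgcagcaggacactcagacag
Lilrb4a, motif 1: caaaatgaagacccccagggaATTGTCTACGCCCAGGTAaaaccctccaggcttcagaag
Lilrb4a, motif 2: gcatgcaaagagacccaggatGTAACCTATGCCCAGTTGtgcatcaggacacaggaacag
Lair1, motif 1: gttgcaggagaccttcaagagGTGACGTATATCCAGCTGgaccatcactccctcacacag
Cd300a, motif 1: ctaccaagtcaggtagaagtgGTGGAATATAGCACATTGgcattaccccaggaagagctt
Cd300lf, motif 1: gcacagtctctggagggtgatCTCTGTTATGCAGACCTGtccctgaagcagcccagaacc
Siglece, motif 1: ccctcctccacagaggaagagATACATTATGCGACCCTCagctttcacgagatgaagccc
Pilra, motif 1: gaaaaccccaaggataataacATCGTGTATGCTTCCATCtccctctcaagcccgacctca
The second motifs of Pirb and Lilrb4a were identical at 16 of 18 bases, and the second motif of Pirb and the first of Lair1 at 15 of 18.

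The motifs lie near the end of each gene. On GRCm38 the printed capitals fall at chr2:129629954-129629971 (plus strand, exon 9 of 9) for Sirpa, chr7:4009790-4009807 (minus, exon 8 of 8) for Lair1, chr7:43651585-43651602 (minus, exon 7 of 7) for Siglece and chr5:137823571-137823588 (minus, exon 7 of 7) for Pilra. Those of Cd300a are at chr11:114899846-114899863 (plus, exon 6 of 7) and those of Cd300lf at chr11:115117648-115117665 (minus, exon 6 of 7). The motifs of Lilrb4a are in exon 8 and exon 9 of 9, at chr10:51496021-51496038 and chr10:51496194-51496211 (plus). The first motif of Pirb is split between exon 12 and exon 13 of 15, from chr7:3713862 to 3714103, and the second is in exon 15, at chr7:3712786-3712803 (both minus). Cd33 spans chr7:43524216-43544428 (minus), next to Siglece on the chromosome that also holds Pirb and Lair1.

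Part of these genes cannot be counted apart from their relatives. Every window of 100 bases along the Lilrb4a transcript also occurred in Gm49339, a protein-coding gene annotated over Lilrb4a on the same strand. For Pirb 24.6% of windows occurred in transcripts of 9 other genes, and the share was 2.0% for Cd300lf, 0.9% for Cd300a and 0.9% for Pilra. Sirpa, Lair1, Siglece and Cd33 shared 0.0%. Cd300lf and Pilra overlap Rab37 and Zcwpw1 on the opposite strand, and whether the counting used strand was not given in the sources used here.

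Libraries held between 2301913 and 7248939 counts, so a count of 0 allowed up to 3 counts, or 0.414 to 1.30 counts per 1000000 counts of the library (CPM), in counting error alone. MHC class II genes and Itgax (CD11c) followed the sorting labels. The 4 MHC class II genes summed to 11106 CPM or more in each MHCII+ library and to at most 155 CPM in LYVE1+CX3CR1+ libraries. Itgax reached at least 275 CPM in MHCII+CD11c+ libraries and at most 16.01 CPM elsewhere. The 5 LYVE1+CX3CR1+ markers (Lyve1, Cx3cr1, Timd4, Folr2 and Vsig4) summed to 3544 CPM or more in that subset and to at most 3286 CPM elsewhere. Singly, Timd4 and Folr2 overlapped between LYVE1+CX3CR1+ and MHCII+CD11c- libraries. Lyve1 reached 2452 CPM in a MHCII+CD11c- library after IC, against 1723 CPM in a LYVE1+CX3CR1+ control. The 6 macrophage markers summed to 3478 CPM or more in the LYVE1+CX3CR1+ and MHCII+CD11c- libraries and to between 1440 and 2528 CPM in MHCII+CD11c+ libraries. Control libraries 2 of MHCII+CD11c- and of MHCII+CD11c+ macrophages stood apart from the others of their groups in some genes of the LYVE1+CX3CR1+ subset. Vsig4 was 306 CPM against 28.9 and 22.4 CPM in the first group, and 81.0 CPM against 1.06 and 0 CPM in the second. Lyve1 and Cx3cr1 were also highest in library 2 of both groups. Timd4 and Folr2 were lowest in library 2 of the first group, at 46.0 and 87.3 CPM. In the second, Timd4 (11.9 CPM) lay between the others and Folr2 (31.5 CPM) above them. Some values below are also given without both libraries, and values given once can move as well when both are left out. Fcgr2b kept between 167 and 1168 counts per library. As all groups carry the knockout and the deleted part is not given in the sources used here, this checks no label. Markers of other cells were lower than those of macrophages, with sums of at most 273 CPM for neutrophils, 213 CPM for fibroblasts, 35.7 CPM for mast cells, 35.2 CPM for endothelial cells, 23.4 CPM for B cells, 6.86 CPM for eosinophils and 4.32 CPM for T cells. Monocyte and dendritic cell markers are given beside the subset comparisons.

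Sirpa, the receptor for the "don't eat me" ligand CD47, was the most abundant of the 9 in CPM per kilobase of exon union. This length joins all annotated exons of a gene, at 4911 bases against 3824 in the principal transcript for Sirpa. It was 5227 against 1381 bases for Lilrb4a and 7771 against 1962 bases for Cd33, so the order of the receptors depends on the length used. On the exon union scale the group means of Sirpa lay between 102 ± 18.7 (SD, n = 3) and 134 ± 11.1 (n = 2). The lowest was that of MHCII+CD11c+ control macrophages and the highest that of the same subset after IC. In CPM, Sirpa ranged from 403 to 779 over the 17 libraries, a 1.93-fold range, and in the order of the 6 group means every group overlapped the next. On the exon union scale Sirpa made up between 32.9% and 41.2% of the summed level of the 9 receptors, by group mean.

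Lilrb4a and Pirb came next by group mean, except in LYVE1+CX3CR1+ controls, where Cd33 lay between them. Lilrb4a encodes gp49B, an inhibitory receptor of myeloid and mast cells, and its group means were between 62.8 and 94.2 CPM per kilobase. In CPM its libraries ran from 169 to 594 and the groups overlapped throughout. Pirb, an MHC class I-binding receptor, lay between 35.7 ± 9.76 CPM per kilobase in LYVE1+CX3CR1+ controls and 86.6 ± 16.95 in MHCII+CD11c- macrophages after IC (n = 3 each). Cd33 lay at 60.03 ± 4.89 CPM per kilobase in LYVE1+CX3CR1+ controls and was low in MHCII+CD11c+ controls, at 5.86 ± 1.98 (n = 3 each).

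The other 5 receptors had lower means than Lilrb4a and Pirb in every group. In MHCII+CD11c+ controls the means of Pilra, Cd300a and Lair1 all exceeded that of Cd33. For Lair1 this came from library 2, at 29.7 CPM per kilobase against 7.99 for Cd33. In libraries 1 and 3 Lair1 (1.87 and 1.77) lay below Cd33 (5.52 and 4.08). Lair1, a receptor for collagen and C1q, had group means between 11.1 and 32.6 CPM per kilobase. Cd300a, a receptor for the phospholipids that dying cells expose, had means between 12.5 and 23.0. Siglece, a sialic acid-binding receptor, lay between 3.31 and 10.5, and Pilra, which binds O-glycosylated ligands such as CD99, between 2.10 and 24.8. Cd300lf, another lipid-binding member of the CD300 family, was close to the limit of detection, with 0 to 50 counts per library and means of 0.355 to 1.26 CPM per kilobase.

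**Figure D1:**
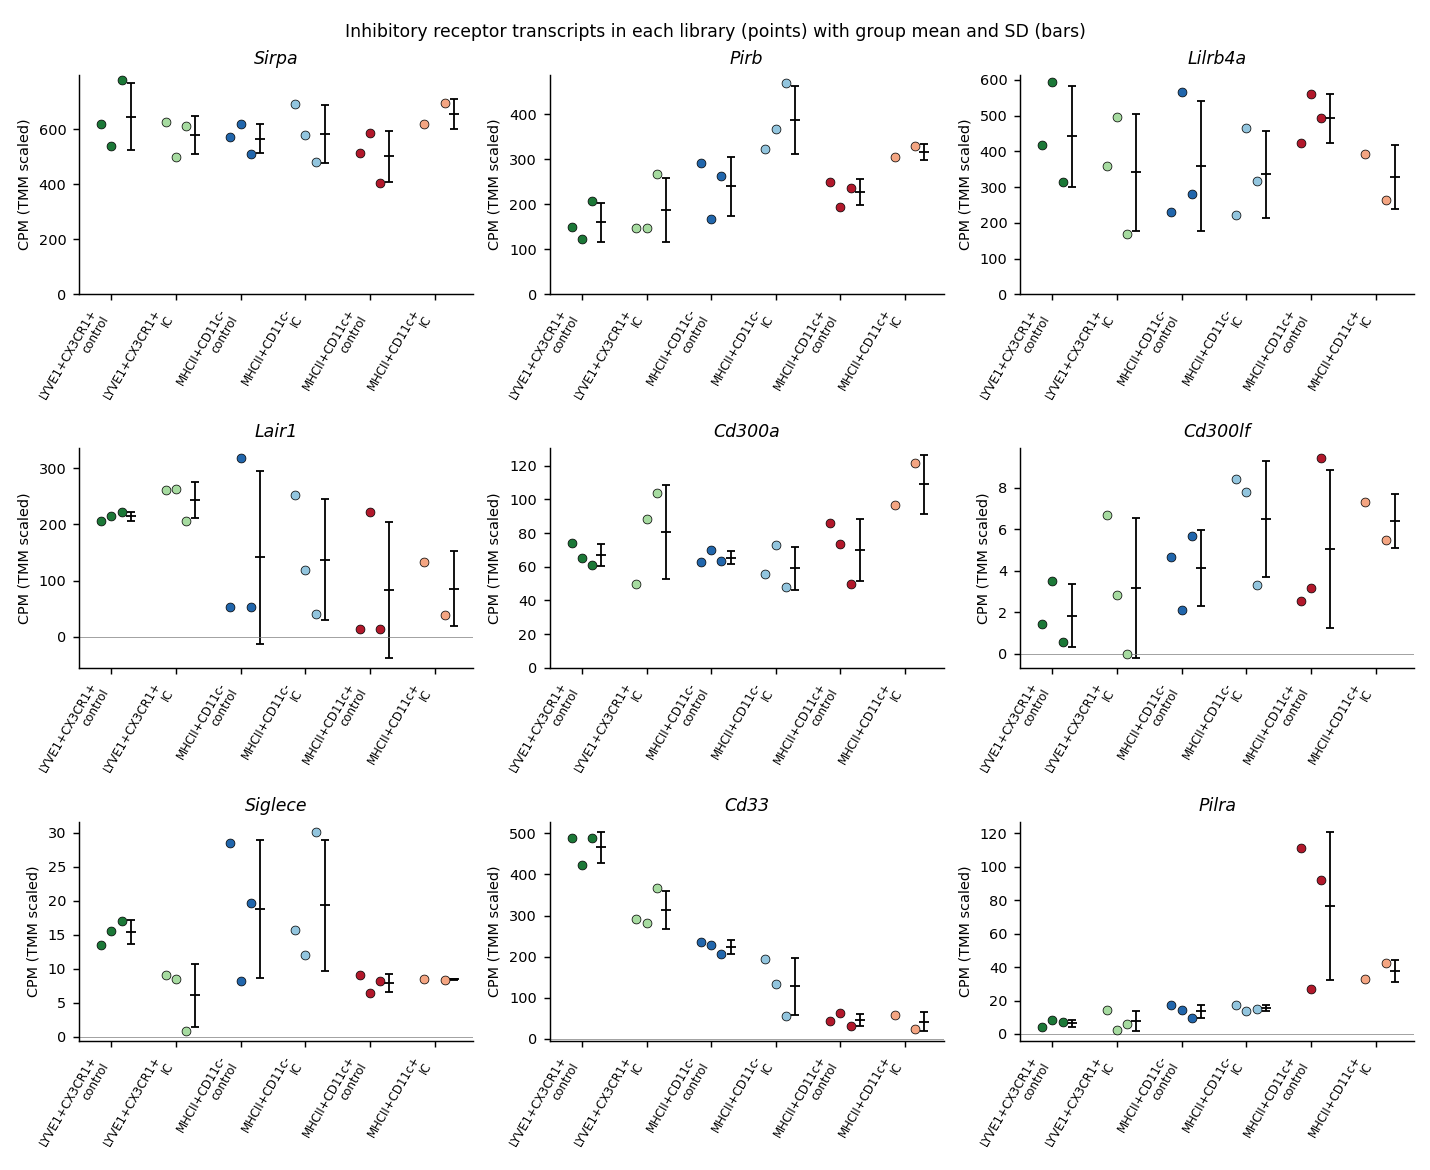
Level of the 9 receptor genes in each of 17 libraries, in TMM-scaled CPM on a linear axis, by macrophage subset and treatment; points are libraries and bars give the group mean ± SD (n = 3, or 2 for MHCII+CD11c+ after IC). Cd33 steps down from LYVE1+CX3CR1+ to MHCII+CD11c+ macrophages, Pilra is highest in MHCII+CD11c+ macrophages, and 1 MHCII+ control library per subset carries the high Lair1 value; SD bars of Lair1 and Cd300lf that pass below 0 show only that the spread exceeds the mean.

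The first comparison asked whether systemic IC changed these receptors within a subset. With edgeR's quasi-likelihood test, none of the 9 receptors passed the threshold of an adjusted p of 0.05 in any of the 3 subsets, taken in the order LYVE1+CX3CR1+, then MHCII+CD11c-, then MHCII+CD11c+. There 0.963%, 0.701% and 0.216% of all 15272 genes tested passed. DESeq2 called 0 as well. At an unadjusted p under 0.05, 1, 2 and 1 of the 9 passed, against 14.1%, 10% and 5.21% of all genes. In the mean response over the 3 subsets 0 of 9 were called, against 3.35% of genes, and 2 of 9 had an unadjusted p under 0.05, against 17.7%. The median log2 fold change of the 9 was 0.18, 0.04 and 0.09 in the 3 subsets, and that of all genes was -0.14, -0.03 and 0.01. Without both MHCII+ control libraries numbered 2, still 0 of 9 were called in either MHCII+ subset or in the mean response, while the number of all genes called rose from 107 to 267 in MHCII+CD11c- macrophages, from 33 to 154 in MHCII+CD11c+ macrophages and from 511 to 879 in the mean.

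With all libraries, Pirb was the receptor closest to the threshold. In MHCII+CD11c- macrophages it measured 291, 166 and 264 CPM in the control libraries and 323, 368 and 471 CPM after IC. All 3 IC libraries lay above all 3 controls. The log2 fold change was 0.69 ± 0.25 (SE), with an adjusted p of 0.281. Without both MHCII+ control libraries numbered 2 this fold change was 0.48, with an adjusted p of 0.439. In MHCII+CD11c+ macrophages it measured 249, 194 and 236 CPM in controls and 304 and 329 CPM after IC, again without overlap, with a log2 fold change of 0.48 ± 0.27 and an adjusted p of 1. In LYVE1+CX3CR1+ macrophages the groups overlapped, at 149, 122 and 208 CPM in controls and 147, 147 and 268 CPM after IC. The mean response of Pirb was 0.47 ± 0.15 on the log2 scale, with an adjusted p of 0.0867. Of 24 alternatives it passed in 1, the fit with the replicate number as a block, at an adjusted p of 0.0157. Without both MHCII+ control libraries numbered 2 it was 0.36 with an adjusted p of 0.143, and the mean response of Lair1 was then the closest, at 1.40 with an adjusted p of 0.0662 (0.06 and 0.994 with all libraries).

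Cd33 did not pass the test either. In LYVE1+CX3CR1+ macrophages it measured 488, 423 and 489 CPM in controls and 292, 282 and 367 CPM after IC. In MHCII+CD11c- macrophages it measured 237, 228 and 205 CPM in controls and 193, 134 and 55.5 CPM after IC. Neither pair of groups overlapped, the IC libraries being the lower ones, and the log2 fold changes were -0.57 ± 0.36 (adjusted p = 0.530) and -0.80 ± 0.37 (adjusted p = 0.480). In MHCII+CD11c+ macrophages the difference was -0.16 ± 0.42 with overlapping groups, and 0.13 without the 2 control libraries that stand apart.

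Siglece showed the largest estimate in LYVE1+CX3CR1+ macrophages. Its controls held 13.5, 15.6 and 16.99 CPM and its IC libraries 9.05, 8.48 and 0.828 CPM, the last of which rests on 2 counts. The groups did not overlap, and the log2 fold change was -1.30 ± 0.59 with an adjusted p of 0.317. Among MHCII+CD11c- macrophages Siglece was spread from 8.29 to 30.2 CPM in both treatments, with an estimate of 0.04 ± 0.56, which was -0.32 without the 2 control libraries that stand apart. Lilrb4a in that subset likewise turned from -0.10 to 0.39 without them, called in neither.

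Sirpa gave the narrowest estimates. Its log2 fold changes after IC were -0.16 ± 0.18, 0.04 ± 0.18 and 0.39 ± 0.20 in the same order of subsets. Cd300a had 0.27 ± 0.25, -0.15 ± 0.25 and 0.64 ± 0.28. Pilra had 0.29 ± 0.53, 0.18 ± 0.49 and -1.02 ± 0.54, with overlapping groups in each subset. Without both MHCII+ control libraries numbered 2, its estimate in MHCII+CD11c+ macrophages was -1.43 with an adjusted p of 0.296. The errors of Lair1 were over 1 log2 unit in each subset, and those of Cd300lf between 0.96 and 1.05, so changes of that size could not be seen for these genes.

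The responses of the subsets to IC were also set against each other. None of the 9 receptors was called for a difference in response, whether LYVE1+CX3CR1+ macrophages were set against either MHCII+ subset or the MHCII+ subsets against each other. Of all genes, 0.0262%, 0.0327% and 0% were called in these 3 interaction tests. The unadjusted p was under 0.05 for 0, 0 and 1 of the 9, against 7.54%, 8.01% and 3.25% of all genes, and DESeq2 called 0 in each. The smallest adjusted p among the receptors was 0.630.

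**Figure D2:**
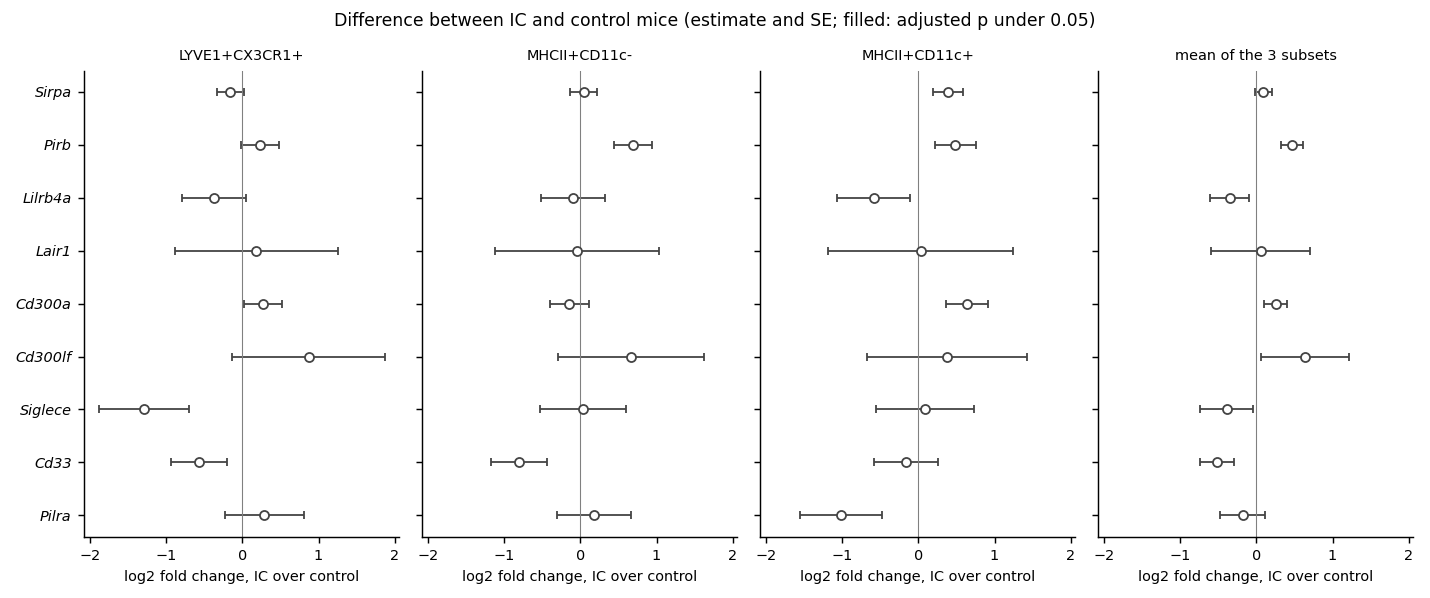
Log2 fold change of each receptor gene, IC over control, with its SE, in the 3 macrophage subsets and for their mean; 0 is no difference, and a filled point would mark an adjusted p under 0.05 in edgeR's quasi-likelihood test. No point is filled. Pirb and Cd300lf lie above 0 and Cd33 and Lilrb4a below 0 in all 3 subsets, and so by construction in their mean. The widest bars are those of Lair1 and Cd300lf.

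The second set of comparisons was between the subsets, and there Cd33 and Pilra differed in opposite directions. Cd33 measured 488, 423 and 489 CPM in the LYVE1+CX3CR1+ controls, 237, 228 and 205 CPM in the MHCII+CD11c- controls and 42.9, 62.1 and 31.7 CPM in the MHCII+CD11c+ controls. The 3 groups were separate from each other. With MHCII+CD11c+ macrophages as the reference, Cd33 was 10.2-fold higher in LYVE1+CX3CR1+ macrophages (log2 fold change 3.35 ± 0.40, adjusted p = 2.96e-05). Against MHCII+CD11c- macrophages the MHCII+CD11c+ level was 4.86-fold lower (-2.28 ± 0.39, adjusted p = 0.00139). Without both MHCII+ control libraries numbered 2 these were 3.63 (adjusted p = 0.000151) and -2.56 (adjusted p = 0.00446). The LYVE1+CX3CR1+ level over that of MHCII+CD11c- macrophages was 1.06 ± 0.37 on the log2 scale with an adjusted p of 0.234. In bulk libraries, fewer cells of a type and less RNA per cell cannot be told apart.

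Pilra ran the other way. It measured 4.24, 8.09 and 7.10 CPM in the LYVE1+CX3CR1+ controls, 17.2, 14.1 and 9.34 CPM in the MHCII+CD11c- controls and 111, 26.7 and 92.1 CPM in the MHCII+CD11c+ controls. Library 2, the one high in Vsig4, gave the lowest of the MHCII+CD11c+ values, which still lay above all control libraries of the other subsets. Its LYVE1+CX3CR1+ level was 11.9-fold below that of MHCII+CD11c+ macrophages (-3.57 ± 0.53, adjusted p = 3.81e-05), and its MHCII+CD11c+ level 5.60-fold above that of MHCII+CD11c- macrophages (2.49 ± 0.50, adjusted p = 0.00216). Without both MHCII+ control libraries numbered 2, these became -3.98 (adjusted p = 1.61e-06) and 2.92 (adjusted p = 0.000701).

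In control mice these were the receptors called: 2 of 9 between LYVE1+CX3CR1+ and MHCII+CD11c+ macrophages, where 15.2% of all genes were called, and 2 of 9 between MHCII+CD11c+ and MHCII+CD11c- macrophages, where 8.66% were. Between LYVE1+CX3CR1+ and MHCII+CD11c- macrophages edgeR and DESeq2 called 0 of 9, against 1.56% of genes in edgeR, and 3 of 9 had an unadjusted p under 0.05, against 10.2% of genes. With 9 genes, such counts are a description beside the background.

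After IC the group means of the 2 genes lay in the same order, but Pilra was no longer called between the MHCII+ subsets. Its MHCII+CD11c+ level over that of MHCII+CD11c- macrophages was 1.29 ± 0.53 on the log2 scale, without overlap, with an adjusted p of 0.226. Cd33 measured 57.2 and 24.5 CPM in MHCII+CD11c+ macrophages, below all LYVE1+CX3CR1+ libraries after IC, which began at 282 CPM, with a log2 fold change of 2.94 ± 0.46 and an adjusted p of 0.000601. Pilra measured 14.6, 2.51 and 6.21 CPM in LYVE1+CX3CR1+ macrophages and 33.1 and 42.6 CPM in MHCII+CD11c+ macrophages, with -2.26 ± 0.55 and an adjusted p of 0.00772. These were 2 of 9, against 11.9% of all genes. Without library 2 of MHCII+CD11c+ macrophages after IC, which leaves 1 library there, the adjusted p of Pilra was 0.0831. Between the MHCII+ subsets after IC, Cd33 was called lower in the CD11c+ one, with -1.64 ± 0.44 and an adjusted p of 0.0479, although 1 library of each group overlapped, at 57.2 and 55.5 CPM. This was 1 of 9, against 4.03% of all genes, and the adjusted p of this call reached 0.515 without library 2 of MHCII+CD11c+ macrophages after IC.

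The ratio of Cd33 to Pilra counts, which does not depend on the scaling of the libraries, put the 3 control subsets in separate ranges. Each gene alone already separated these control groups, in opposite directions, so this follows from the values above and adds no support. The ratio was 52.2 to 115 in LYVE1+CX3CR1+, 13.7 to 22.0 in MHCII+CD11c- and 0.344 to 2.33 in MHCII+CD11c+ macrophages. After IC it was 20 to 112, 3.67 to 11.1 and 0.575 to 1.73. Markers of other cells moved with these subsets. The 4 monocyte markers summed to between 20.1 and 39.3 CPM in LYVE1+CX3CR1+ controls and between 554 and 1167 CPM in MHCII+CD11c+ controls, with 230 to 513 CPM in MHCII+CD11c- controls between them, and Ly6c2 was at 0 in the former. The 5 dendritic cell markers summed to between 19.4 and 23.3 CPM and between 191 and 554 CPM in the same groups, and to between 89.8 and 209 CPM in MHCII+CD11c- controls. Their part in the values of Cd33 and Pilra was not tested.

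**Figure D3:**
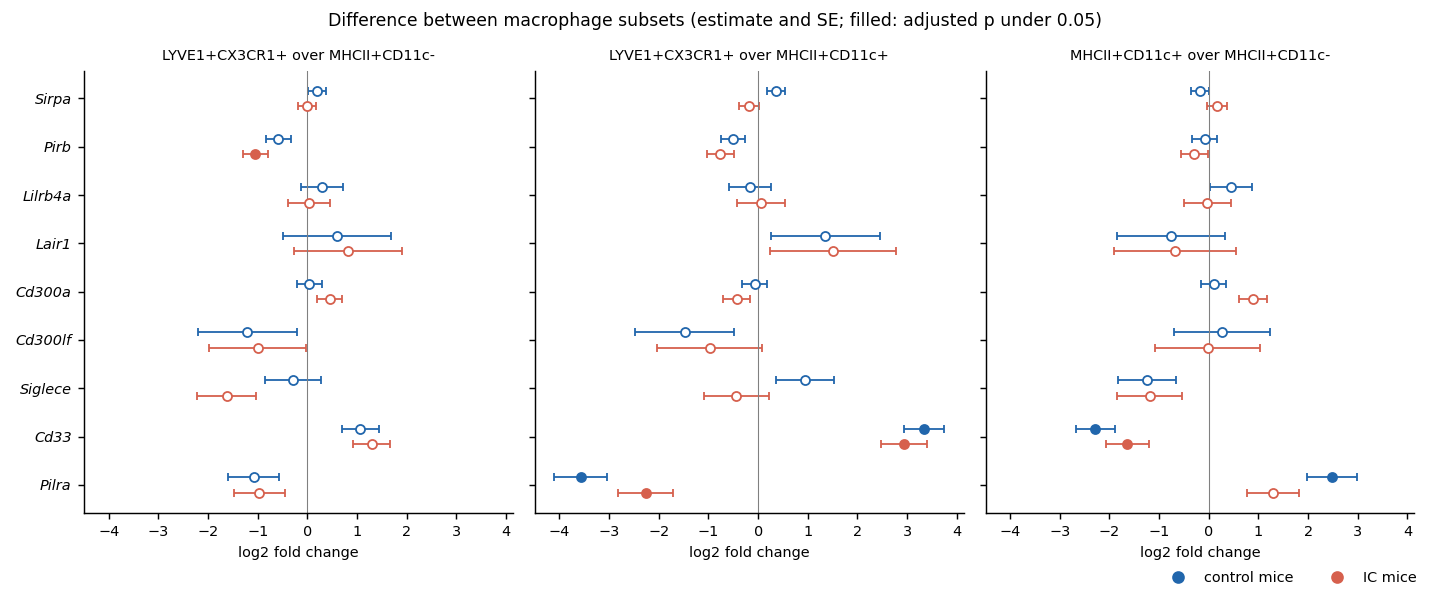
Log2 fold change of each receptor gene between pairs of macrophage subsets, with its SE, in control mice (blue) and in IC mice (red); filled points have an adjusted p under 0.05 in edgeR's quasi-likelihood test. Cd33 lies at 3.35 and 2.94 and Pilra at -3.57 and -2.26 in the comparison of LYVE1+CX3CR1+ with MHCII+CD11c+ macrophages, and Pirb is filled in IC mice alone, against MHCII+CD11c- macrophages.

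Pirb differed between LYVE1+CX3CR1+ and MHCII+CD11c- macrophages after IC. The 3 LYVE1+CX3CR1+ libraries, at 147, 147 and 268 CPM, lay below the 3 MHCII+CD11c- libraries, at 323, 368 and 471 CPM. Pirb was 2.07-fold lower (-1.05 ± 0.25, adjusted p = 0.0129), the only receptor of the 9 called there by edgeR, where 5.54% of all genes were called. DESeq2 called 2 of 9 there, Pirb and Cd33, and 1447 of all 15272 genes. Cd33 was 1.29 ± 0.37 in edgeR, with an adjusted p of 0.0554 and no overlap, and was called under 4 of 12 alternatives. In controls the Pirb comparison gave -0.59 ± 0.25 with an adjusted p of 0.365, and -0.79 with an adjusted p of 0.0626 without both MHCII+ control libraries numbered 2. For Pirb, the difference between the treatments was -0.46 ± 0.35 with an adjusted p of 0.824. Without library 3 of MHCII+CD11c- macrophages after IC the adjusted p of the Pirb call was 0.122. Against MHCII+CD11c+ macrophages after IC, Pirb was -0.76 ± 0.27 with an adjusted p of 0.0724, and it was called under 4 of 12 alternatives, among them the replicate block (adjusted p = 0.00123). In controls that difference, -0.50 ± 0.25 with an adjusted p of 0.198, passed with the replicate block (adjusted p = 0.0374) and with the counts of relatives summed (adjusted p = 0.0156). Monocyte markers after IC summed to between 8.69 and 21.6 CPM in LYVE1+CX3CR1+, 223 and 470 CPM in MHCII+CD11c- and 746 and 994 CPM in MHCII+CD11c+ macrophages. Dendritic cell markers summed to 6.60 to 12.0 CPM, 64.3 to 81.9 CPM and 167 to 248 CPM, with Ly6c2 and Clec9a at 0 in the first subset. Their part in the Pirb values was not tested.

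The activating relatives of Pirb, the Pira genes, were measured in the same libraries. They encode receptors that bind MHC class I like PIR-B but signal through FcRγ. Pira12 measured 3.93, 2.97 and 5.71 CPM in LYVE1+CX3CR1+ controls, 11.5, 15.2 and 21.4 CPM in MHCII+CD11c- controls and 48.8, 52.1 and 68.7 CPM in MHCII+CD11c+ controls. The groups were separate. Its log2 fold change between LYVE1+CX3CR1+ and MHCII+CD11c+ controls was -3.72 ± 0.54 (adjusted p = 2.53e-05) and after IC -4.08 ± 0.60 (adjusted p = 5.70e-05). After IC, Pira2 measured 0, 1.26 and 2.90 CPM in LYVE1+CX3CR1+ macrophages, below 32.5 and 26.9 CPM in MHCII+CD11c+ macrophages, with -4.50 ± 0.75 and an adjusted p of 0.000220. Pira13 was called between the same subsets in both treatments, at -2.21 ± 0.76 in controls and -2.71 ± 0.84 after IC. Pira1 was not called in any comparison. In counts, Pirb exceeded the summed Pira genes 6.22- to 10.01-fold in LYVE1+CX3CR1+ controls, 5.55- to 7.68-fold in MHCII+CD11c- controls and 2.19- to 2.46-fold in MHCII+CD11c+ controls. After IC the ratios were 12.0 to 33.5, 10.2 to 13.8 and 2.95 to 3.55. As 24.6% of the Pirb transcript occurs elsewhere, reads could have been split between these genes.

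**Figure D4:**
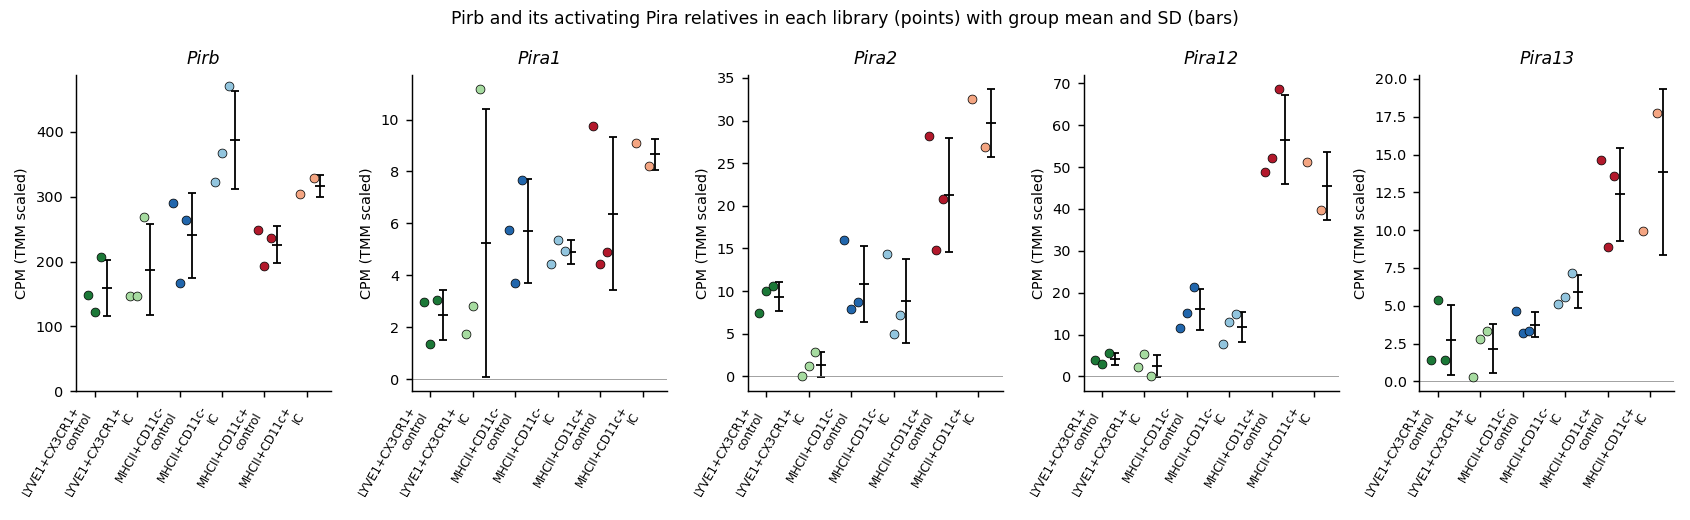
Level of Pirb and of 4 activating Pira genes in each of 17 libraries, in TMM-scaled CPM on linear axes that differ between panels; points are libraries and bars the group mean ± SD (n = 3, or 2 for MHCII+CD11c+ after IC). Pira12 lies between 39.9 and 68.7 CPM in MHCII+CD11c+ macrophages and at 5.71 CPM or less in LYVE1+CX3CR1+ macrophages, while Pirb spans 122 to 471 CPM over all groups.

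Lair1 varied widely between libraries of the MHCII+ subsets. It was steady in LYVE1+CX3CR1+ macrophages, at 207, 214 and 222 CPM in controls and 261, 263 and 206 CPM after IC. In MHCII+CD11c- macrophages it was 52.4, 318 and 53.4 CPM in controls and 252, 119 and 40.6 CPM after IC. In MHCII+CD11c+ macrophages it was 14.0, 222 and 13.2 CPM in controls and 133 and 38.2 CPM after IC. Control library 2 of each MHCII+ subset thus reached the level of LYVE1+CX3CR1+ macrophages, and the others were far below it. Vsig4, a complement receptor of the LYVE1+CX3CR1+ subset, moved with Lair1: in 4 of the 4 MHCII+ groups the library with the most Lair1 also had the most Vsig4, and the same held for Cx3cr1. For Lyve1 it held in 3 of 4, for Folr2 in 2 and for Timd4 in 1. The MHC class II genes summed to 20634 CPM in control library 2 of MHCII+CD11c+ macrophages and to 30536 and 34146 CPM in the others of that group. The part of such genes in the Lair1 values was not tested.

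These libraries decided whether Lair1 differed between subsets. With all libraries, the log2 fold change between LYVE1+CX3CR1+ and MHCII+CD11c+ controls was 1.35 ± 1.10, with an adjusted p of 0.510. Without both MHCII+ control libraries numbered 2, a choice made after seeing the data, it was 3.97 with an adjusted p of 0.00513. Leaving out the MHCII+CD11c+ library 2 alone gave 3.97 with an adjusted p of 0.0308. The comparison with MHCII+CD11c- controls moved from 0.60 (adjusted p = 0.985) to 2.02 (adjusted p = 0.173). The IC response of Lair1 in MHCII+CD11c+ macrophages moved from 0.03 to 2.65, with adjusted p-values of 1 and 0.247, and that in MHCII+CD11c- macrophages from -0.04 to 1.38, with adjusted p-values of 0.995 and 0.446.

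**Figure D5:**
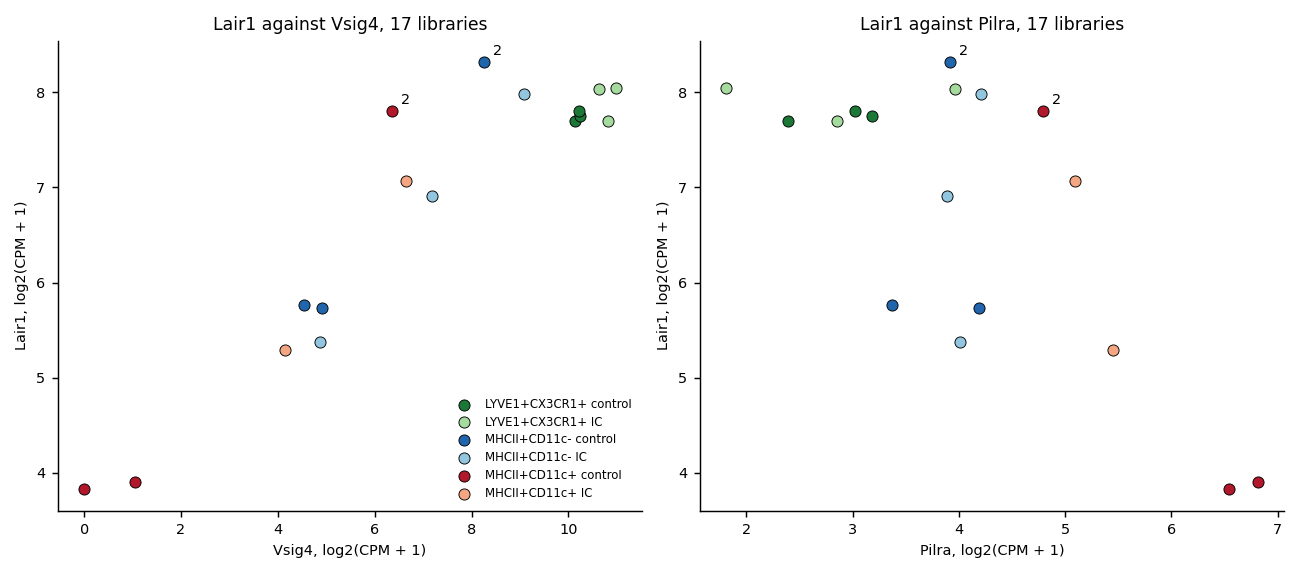
Lair1 against Vsig4 (left) and against Pilra (right) in each of 17 libraries, on log2(CPM + 1) axes, colored by macrophage subset and treatment; the digit 2 marks control library 2 of MHCII+CD11c- and of MHCII+CD11c+ macrophages. Both marked libraries share high Lair1 (318 and 222 CPM) with more Vsig4 (306 and 81.0 CPM) than the other control libraries of their groups.

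The remaining receptors were not called between subsets. Siglece after IC did not overlap between LYVE1+CX3CR1+ macrophages, at 0.828 to 9.05 CPM, and MHCII+CD11c- macrophages, at 12.1 to 30.2 CPM, with -1.62 ± 0.60 and an adjusted p of 0.113. Cd300a after IC measured 96.6 and 121 CPM in MHCII+CD11c+ macrophages and 55.8, 73.2 and 48.1 CPM in MHCII+CD11c- macrophages, with 0.88 ± 0.28 and an adjusted p of 0.0810. With all libraries, Sirpa differed by 0.37 ± 0.18 or less in size in every pair of subsets, with adjusted p-values of 0.197 or more. Lilrb4a then ranged between -0.16 and 0.45, with errors of 0.42 to 0.47. Without both MHCII+ control libraries numbered 2, Sirpa was 0.49 in LYVE1+CX3CR1+ over MHCII+CD11c+ controls (adjusted p = 0.0807). Lilrb4a was then 0.79 in LYVE1+CX3CR1+ over MHCII+CD11c- controls (adjusted p = 0.473). In MHCII+CD11c+ over MHCII+CD11c- controls it was 0.84 (adjusted p = 0.320).

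The close relatives of the other receptors were measured beside them. Lilrb4b, the gene of gp49A, had between 269 and 1041 CPM and 1.17 to 3.18 times the counts of Lilrb4a, and was not called in any comparison. Cd300c2, an activating CD300 receptor, measured 82.2, 43.4 and 63.5 CPM in LYVE1+CX3CR1+ controls, above 20.2, 28.7 and 26.4 CPM in MHCII+CD11c- controls, with 1.33 ± 0.31 and an adjusted p of 0.0242. Against MHCII+CD11c+ controls it was 1.44 ± 0.31 with an adjusted p of 0.00200. Cd300ld was not called in any comparison. Pilrb1, the activating relative of Pilra, was at 0 to 2.92 CPM in LYVE1+CX3CR1+ controls and at 8.53 to 27.5 CPM in MHCII+CD11c+ controls, with -3.20 ± 1.01 and an adjusted p of 0.0330, and Pilrb2 was not called. Sirpb1a and Sirpb1c, activating relatives of Sirpa, were at 0 counts in all 6 LYVE1+CX3CR1+ libraries and at 7.77 CPM or less in the MHCII+ libraries, and Sirpb1b had at most 1 count in a LYVE1+CX3CR1+ library and 22 elsewhere.

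Among the 21 paired activating receptors and adaptors tested, which include the genes above, 2 were called higher and 7 lower in LYVE1+CX3CR1+ controls when compared with MHCII+CD11c+ controls. Of all genes, 15.2% were called there. The median log2 fold change of the 21 was -1.19, and that of all genes 0.05. Lilra6, an activating Ig-like receptor, was among the lower ones, at a mean of 5.99 against 73.4 CPM (-3.65 ± 0.85, adjusted p = 0.00853). Siglech, a DAP12-coupled sialic acid-binding receptor, was among the higher, at 20.5 against 1.90 CPM. After IC, Siglech fell in LYVE1+CX3CR1+ macrophages from a mean of 20.5 to 2.01 CPM (-3.42 ± 0.73, adjusted p = 0.0224). In the same groups the dendritic cell markers summed to 19.4 to 23.3 CPM in controls and 6.60 to 12.0 CPM after IC, and the MHC class II genes to 102 to 155 CPM and 19.8 to 49.0 CPM. The part of other cells in the Siglech values was not tested. Fcer1g, the gene of FcRγ, rose in MHCII+CD11c- macrophages from 216, 196 and 260 CPM to 397, 441 and 493 CPM (0.99 ± 0.18, adjusted p = 0.00613) and in the mean response (0.67 ± 0.11, adjusted p = 0.000607).

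Of the 12 genes that act on ITIMs, 4 were called higher in the mean response to IC and 0 lower, with a median of 0.17 against -0.07 for all genes. These included Inpp5d, the gene of SHIP-1 (0.48 ± 0.10, adjusted p = 0.00692), the adaptor Dok3 (0.75 ± 0.16, adjusted p = 0.0105) and the Src-family kinase Fgr (0.86 ± 0.20, adjusted p = 0.0185). Ptpn6, the gene of SHP-1, which was singled out after its values were seen, had group means between 199 and 290 CPM and was called in no comparison. Between LYVE1+CX3CR1+ and MHCII+CD11c+ controls 3 of the 12 were called higher and 4 lower, against 15.2% of all genes called. Dok3 (2.46 ± 0.29) and Inpp5d (0.99 ± 0.17) were higher in LYVE1+CX3CR1+ macrophages, and Fgr (-2.94 ± 0.36) and Ptpn11, the gene of SHP-2 (-1.11 ± 0.18), were lower.

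Genes of the ligands were read in the same libraries. Of 13 tested, 4 were called higher and 1 lower in LYVE1+CX3CR1+ controls, set against MHCII+CD11c+ controls, where 15.2% of all genes were called. The median of the 13 was -0.25 against 0.05 for all genes. The higher ones included C1qa, C1qb and C1qc, the chains of the complement component that LAIR-1 binds, with log2 fold changes of 2.46 ± 0.48, 2.10 ± 0.35 and 2.59 ± 0.53. Control library 2 gave the highest value of the MHCII+CD11c+ group for C1qa, at 665 CPM against a group mean of 341 CPM. Cd47, the ligand of SIRPα, had a mean of 177 CPM in LYVE1+CX3CR1+ macrophages after IC and of 314 CPM in MHCII+CD11c+ macrophages (-0.82 ± 0.20, adjusted p = 0.00866). B2m, the light chain of MHC class I, was called in the mean response to IC (0.42 ± 0.11, adjusted p = 0.0391). It was the only one of the 13 called there, against 3.35% of all genes.

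Genes that make, transfer or remove sialic acid, which Siglec-E and CD33 bind, were a further list of 15 tested. Cmah converts the acetyl to the glycolyl form of sialic acid. It fell in LYVE1+CX3CR1+ macrophages from 217, 193 and 272 CPM to 91.1, 111 and 104 CPM (-1.15 ± 0.24, adjusted p = 0.0206). In MHCII+CD11c- macrophages it fell from 153, 91.2 and 143 CPM to 45.1, 54.3 and 41.2 CPM (-1.46 ± 0.25, adjusted p = 0.00369). No IC library overlapped a control library in either subset, and Cmah was the only 1 of 15 genes called in each. Of all genes, 0.963% and 0.701% were called in these 2 subsets. In MHCII+CD11c+ macrophages Cmah was already low in controls, at 4.88 to 9.81 CPM, and 4.94 ± 0.29 log2 units below LYVE1+CX3CR1+ controls. St3gal4, a sialyltransferase, was also called lower in the mean response (-0.89 ± 0.20, adjusted p = 0.0113), the second of 2 of the 15, against 3.35% of all genes called. In LYVE1+CX3CR1+ controls, 5 genes of the list were called higher and 2 lower when set against MHCII+CD11c+ controls, among them St6gal1 (1.42 ± 0.22) and St3gal4 (-2.30 ± 0.33). Of all genes, 15.2% were called there. The median log2 fold change of the list was 0.09, and that of all genes 0.05.

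Other inhibitory receptors of this type, outside the 9, made up the last list. Of 14 tested, 5 were called lower and 0 higher in LYVE1+CX3CR1+ controls compared with MHCII+CD11c+ controls, where 15.2% of all genes were called. The median of the 14 was -1.70 against 0.05 for all genes. The 5 lower ones included Cd200r1, the receptor for CD200 (-2.06 ± 0.30), Clec4a2, a C-type lectin receptor (-2.82 ± 0.56), and Siglecg, at a mean of 0.198 against 32.5 CPM. In IC mice 6 were lower and 0 higher, against 11.9% of all genes called, with a median of -1.51 against -0.12. After IC, Siglecg in MHCII+CD11c- macrophages fell from a mean of 9.97 to 0.559 CPM (-3.98 ± 0.90, adjusted p = 0.0323), the only one of the 14 called in any subset. Of all genes, 0.701% were called in that subset. In the same groups the 3 B cell markers summed to 4.06 to 23.4 CPM in controls and 0 to 10.1 CPM after IC, and the dendritic cell markers to 89.8 to 209 CPM and 64.3 to 81.9 CPM. Their part in the Siglecg values was not tested.

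As a description over the 17 libraries, which share subsets and depths, the genes whose log2 CPM ran most like Cd33 were Mfsd6 and Tpcn1 (Pearson's r of 0.973 and 0.972), and those most like Pilra were Tiam1 and Ppm1m (0.942 and 0.940). Lair1 ran most like Pmepa1 and Serpinh1 (0.960 and 0.957), Pirb most like Plac8 and Zbtb16 (0.937 and 0.899), and Siglece most like Gadd45a and Zzz3 (0.905 and 0.903). Plac8, which is among the monocyte markers, was 0 to 4.55 CPM in LYVE1+CX3CR1+ libraries and reached 187 CPM in library 3 of MHCII+CD11c- macrophages after IC, which also had the most Pirb, at 471 CPM. Its part in the Pirb values was not tested. Lilrb4a ran most like Xist and Dleu2 (0.854 and 0.844), Cd300a like Sri and Dbf4 (0.856 and 0.808), Sirpa like Rnf14 and Ate1 (0.843 and 0.810), and Cd300lf like Taf12 and Csf2rb2 (0.837 and 0.817). Among the 9 receptors, the lowest r was that of Cd33 with Pilra, -0.843, and the highest that of Lair1 with Cd33, 0.717.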

How the data were processed

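The authors prepared stranded libraries from 5 ng of RNA and sequenced paired ends. Per the methods of the study and its processing notes, reads were trimmed (Trim Galore, FastQC), aligned to mm10 with HISAT2 and counted per gene with featureCounts; versions, annotation and strand setting were not given in the sources used here. The authors deposited raw counts, used here unchanged. Of the joint table's columns, 1 matched no label, summed to 0 and was not used.

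Counts of all 17 libraries were fitted together, with a mean for each of 6 groups, by edgeR 4.0.16 (TMM, filterByExpr with a minimum count of 10, robust quasi-likelihood F test, Benjamini-Hochberg over 15272 genes, called under 0.05). SE is the log2 fold change over the square root of F. DESeq2 1.42.0 and sva 3.50.0 were alternatives (R 4.3.3). The fit was tested on simulated data. Levels between genes used CPM per kilobase of exon union. Genes of the lists were named where called without overlap of the groups, at most 4 per list and comparison, and close relatives whatever their call. Some genes of the lists are not reported here. For likeness, the 2 genes of highest r were taken, among those with a mean of at least 10 CPM (prior count 2). The receptors and all lists were chosen with earlier results of these data known. No pair of libraries differed by less than sampling noise (chi-square over its degrees of freedom at least 6.77).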

Additional observations from a re-analysis of the deposited data

How the results depend on the processing

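Over 13 comparisons, 1742 of 1770 values of single receptors under an alternative kept their direction where called and their side of the threshold, 11 were no longer called, 17 became called and 0 reversed, while 144 that were not called changed sign. Of 214 counts of receptors called, 20 moved by more than 1.5 times. The cause was not tested.

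For LYVE1+CX3CR1+ against MHCII+CD11c- macrophages after IC, the count of 1 became 2 with RLE size factors, DESeq2 or the replicate block, and 0 at an adjusted p under 0.01. Leaving out single libraries gave 0 to 2, with 0 without library 1 or 2 of LYVE1+CX3CR1+ or library 3 of MHCII+CD11c- macrophages and 2 without library 1 of the latter. For LYVE1+CX3CR1+ against MHCII+CD11c+ macrophages after IC, the count of 2 became 1 when only the groups compared were fitted, and leaving out single libraries gave 1 to 3, with 1 without library 2 of MHCII+CD11c+ macrophages. For MHCII+CD11c+ against MHCII+CD11c- macrophages after IC, the count of 1 became 0 with no filter on low counts or at an adjusted p under 0.01, and 2 with only the groups compared or with surrogate variables. Leaving out single libraries gave 0 to 1, with 0 without library 1 or 2 of MHCII+CD11c- or library 2 of MHCII+CD11c+ macrophages. In controls, the count became 1 for LYVE1+CX3CR1+ against MHCII+CD11c- macrophages with only the groups compared (Cd33), and 1 for MHCII+CD11c+ against MHCII+CD11c- macrophages with surrogate variables.

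The replicate block gave 1 receptor, Pirb, in the mean response to IC in place of 0. It also called Pirb between LYVE1+CX3CR1+ and MHCII+CD11c+ macrophages in controls and after IC, and Cd33 against MHCII+CD11c- macrophages after IC. Within a treatment, deviations of same-numbered libraries from their group means had a positive r in every pair, from 0.00129 to 0.286. For control MHCII+CD11c- and MHCII+CD11c+ macrophages r was 0.0986, 0.286 and 0.0796. Across treatments r ran from -0.153 to 0.0817. As shared mice were not stated, the main fit took no pairs, and whether the subsets shared material was not tested. Cd33 between LYVE1+CX3CR1+ and MHCII+CD11c+ macrophages was called under all 13 alternatives in controls and all 11 after IC, and Pilra under all 14 in controls. Leaving out the MHCII+ control libraries numbered 2 was added after seeing the data. Cd300lf had at most 50 counts in a library and Siglece at most 134, and the part of depth in their spread was not tested. A single library left in a group was assumed to vary like the other groups.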
